A study of Homo sapiens with 8 samples.

Results

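The ID, SMAD and ligand genes of the bone morphogenetic protein (BMP) and transforming growth factor beta (TGF-beta) pathways were followed in SW620 cells, a human colorectal cancer cell line. The set was ID1, ID2, ID3, SMAD3, SMAD6, SMAD7, BMP2, BMP4, TGFB1 and SKIL, matched by gene symbol, which is 10 of the 16922 genes named on the array. They had 12 probes, with a pair each for ID1 and BMP4. RNA was measured on Illumina bead arrays in 4 groups of 2 arrays, all after 24 h. Y15-treated cells received 4 µM of Y15, a compound that inhibits FAK (focal adhesion kinase, the product of PTK2), and were set against untreated cells. HAS3 siRNA cells were transfected with an siRNA against HAS3, a hyaluronan synthase, and were set against cells transfected with a scrambled sequence. The series title names FAK and HAS3 inhibition and the genes that both affect as its subject. Every group is the same cell line, the transfected groups share the transfection, and the Y15 and untreated cells were not transfected. The labels do not name a vehicle for the untreated cells and do not tell whether the 2 samples of a group were grown separately. The p-values therefore rest on the spread between these samples, which may be technical. The labels' extraction note speaks of frozen tissue, although all 8 samples are labelled as a cell line.

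BMP and TGF-beta ligands bind pairs of serine/threonine kinase receptors, which phosphorylate receptor SMADs: SMAD1, SMAD5 and SMAD9 for BMPs, SMAD2 and SMAD3 for TGF-beta and activins. These join SMAD4, enter the nucleus and act on target genes, among them the ID genes, whose helix-loop-helix proteins lack a DNA-binding region and hold other helix-loop-helix factors away from DNA. SMAD6 and SMAD7 are inhibitory SMADs, induced by the pathway and acting back on it, and SKIL (SnoN) is a corepressor of SMAD complexes. In the colon, BMP signalling is strongest toward the crypt top and opposes the stem cell programme, and TGF-beta restrains growth of the normal epithelium.

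The promoter sequence of 5 of the genes is shown because they include the genes that moved furthest or in opposite directions with Y15 (BMP4, ID1 and ID3), their family member ID2, and SMAD6 as an inhibitor that SMADs induce. Each is the 250 bases before a transcription start in RefSeq (GRCh38.p14), 5′ to 3′ on the gene's strand, with matches to 4 short motifs in capitals. The ID1 stretch is chr20:31605039-31605288 (plus strand), that of ID2 chr2:8681806-8682055 (plus), that of ID3 chr1:23559502-23559751 (minus), that of BMP4 chr14:53955051-53955300 (minus, the first of its 3 entries) and that of SMAD6 chr15:66701986-66702235 (plus). The BMP4 stretch lies inside the RefSeq span of the gene (chr14:53949736-53956891). It precedes an inner start and is not sequence upstream of the whole gene.
ID1: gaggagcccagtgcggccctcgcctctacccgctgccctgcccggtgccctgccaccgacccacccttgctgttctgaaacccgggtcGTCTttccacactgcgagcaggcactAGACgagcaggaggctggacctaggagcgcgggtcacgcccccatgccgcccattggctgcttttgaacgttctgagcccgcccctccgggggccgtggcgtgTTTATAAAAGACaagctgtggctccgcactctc
ID2: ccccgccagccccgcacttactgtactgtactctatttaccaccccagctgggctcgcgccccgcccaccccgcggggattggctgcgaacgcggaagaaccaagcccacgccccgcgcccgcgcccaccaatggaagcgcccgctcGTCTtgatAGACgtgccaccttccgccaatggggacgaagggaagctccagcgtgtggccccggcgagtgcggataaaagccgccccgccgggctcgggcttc
ID3: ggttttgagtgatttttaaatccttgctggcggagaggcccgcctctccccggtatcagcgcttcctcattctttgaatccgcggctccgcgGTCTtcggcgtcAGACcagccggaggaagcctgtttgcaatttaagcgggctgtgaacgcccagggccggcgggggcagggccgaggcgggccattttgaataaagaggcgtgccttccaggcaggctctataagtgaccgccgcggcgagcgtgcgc
BMP4: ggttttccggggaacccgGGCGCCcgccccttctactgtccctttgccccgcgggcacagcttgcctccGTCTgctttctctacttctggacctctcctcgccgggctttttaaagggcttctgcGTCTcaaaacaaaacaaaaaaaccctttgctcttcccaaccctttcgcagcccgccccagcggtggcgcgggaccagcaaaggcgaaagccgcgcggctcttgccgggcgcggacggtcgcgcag
SMAD6: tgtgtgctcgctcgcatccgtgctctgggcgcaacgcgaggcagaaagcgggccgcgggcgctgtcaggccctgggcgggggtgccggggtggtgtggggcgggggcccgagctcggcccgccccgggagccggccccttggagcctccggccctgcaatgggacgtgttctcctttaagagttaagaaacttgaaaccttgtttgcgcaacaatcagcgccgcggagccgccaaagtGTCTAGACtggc

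The motifs were the SMAD box GTCT, its palindrome GTCTAGAC, the GC-rich element GGCGCC described at BMP-responsive genes, and the TATA box TATAAA. They were searched on both strands, so that AGAC counts as a GTCT match, and were chosen from general knowledge with the sequences in view. SMAD6 held GTCTAGAC at positions -12 to -5 before its start, and its 2 GTCT matches lie inside that palindrome. The palindrome occurred in 64 of the 35116 promoters in the table (0.182%). BMP4 held GGCGCC at -232 to -227, an element found in 16.4% of promoters. Among entries not printed, GGCGCC matched 2 times in the first SMAD3 entry and 1 time in SKIL. It was absent from BMP4 entries 2 and 3. SMAD7 entry 2 held 1 TATAAA match. Sequence beyond 250 bases from a start was not searched. ID1 held 2 overlapping TATAAA matches, one on each strand, between -33 and -26, and TATAAA was present in 10.7% of promoters. GTCT matched 3 times in ID1 and 2 times each in ID2, ID3 and BMP4, but 77.5% of all promoters held it, with a median of 1 match. Any part of these motifs in the Y15 differences given below was not tested. RefSeq promoters matched 9 of the 10 genes (17 entries), and BMP2 was not among them. A match describes the letters and is no evidence of binding.

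**Figure D1:**
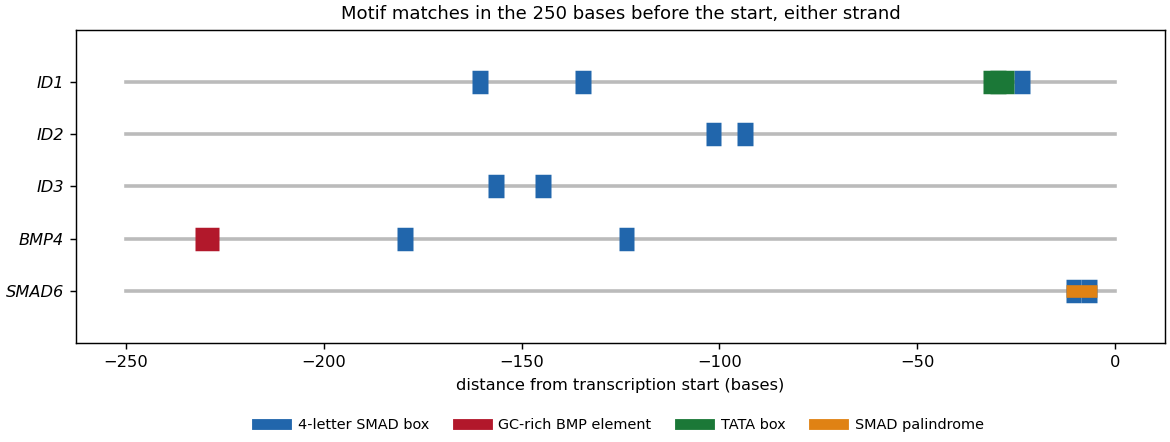
Positions of the motif matches on either strand in the 250 bases before a transcription start of 5 genes, in bases from that start (x axis), 1 line per gene. For BMP4 the start is an inner one. Blue marks GTCT, red GGCGCC, green TATAAA and orange the GTCTAGAC palindrome. In SMAD6 the palindrome lies at -12 to -5, close to the start, while the GTCT matches of ID2, ID3 and BMP4 lie between -181 and -92.

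The arrays resembled each other in depth except for 1. Mean intensity ran from 352.1 to 524.7 on 7 arrays and was 234.1 on Y15 replicate 2, and 12578 to 13916 of the 24526 probes were detected per array (detection p under 0.05). Levels below are log2 values after background correction and quantile normalization. A gene was tested if its probe was detected on at least 2 arrays, and the brightest probe stood for the gene. The HAS3 probe used read 10.05 and 9.73 in HAS3 siRNA cells, against 10.49 and 10.16 in scrambled cells (log2 difference -0.43, limma adjusted p = 0.151), so the lower level of the targeted gene did not pass the test. It averaged 9.89 in HAS3 siRNA cells and 9.41 in untreated cells, a pair that was not tested here, and scrambled cells were above untreated cells by 0.91 (adjusted p = 0.00329). The dimmer HAS3 probe gave -0.31 (adjusted p = 0.287 over all probes). PTK2 gave -0.11 with Y15 (adjusted p = 0.586), which is no check of a kinase inhibitor, and its dimmer probe gave 0.55 (adjusted p = 0.0117 over all probes). The colon epithelial markers EPCAM, KRT8, KRT18, KRT19, CDH1, CDX2 and VIL1 were detected on all 8 arrays, while KRT20 and LGALS4 were detected on none. CDH17 was detected on both HAS3 siRNA arrays, on 1 scrambled array and on no Y15 or untreated array. Of these markers CDX2, VIL1 and KRT8 were lower with Y15 (log2 differences -2.14, -0.65 and -0.46), and CDH1 and CDX2 were lower with HAS3 siRNA (-1.80 and -1.07). Of 12 markers of blood, vessel, stromal and liver cells on the array, 7 passed the filter, at group means of 4.55 to 5.79 in Y15 cells, 4.81 to 5.50 in untreated cells, 4.60 to 5.24 in HAS3 siRNA cells and 4.55 to 5.70 in scrambled cells. VWF and CD14 were higher with Y15 (log2 differences 0.58 and 0.42), and LUM was lower with HAS3 siRNA (-0.57). ALB passed the filter only through the untreated arrays, the only ones on which it was detected. PTPRC, CD3E, COL1A2 and COL3A1 were not detected on any array. The part of these markers in the results below was not tested.

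Of the 10 genes, 7 had a probe that passed the filter. BMP2, TGFB1 and SKIL were not well above background on any of the 8 arrays, so neither a level nor a difference can be given for them. Their intensities ran from 31.8 to 45.3 for BMP2, from 34.2 to 56.8 for TGFB1 and from 35.6 to 48.1 for SKIL, beside lowest intensities of 25.4 to 29.7 on the arrays. BMP2 and TGFB1 encode ligands, so among the ligands of the set only BMP4 could be followed.

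**Figure D2:**
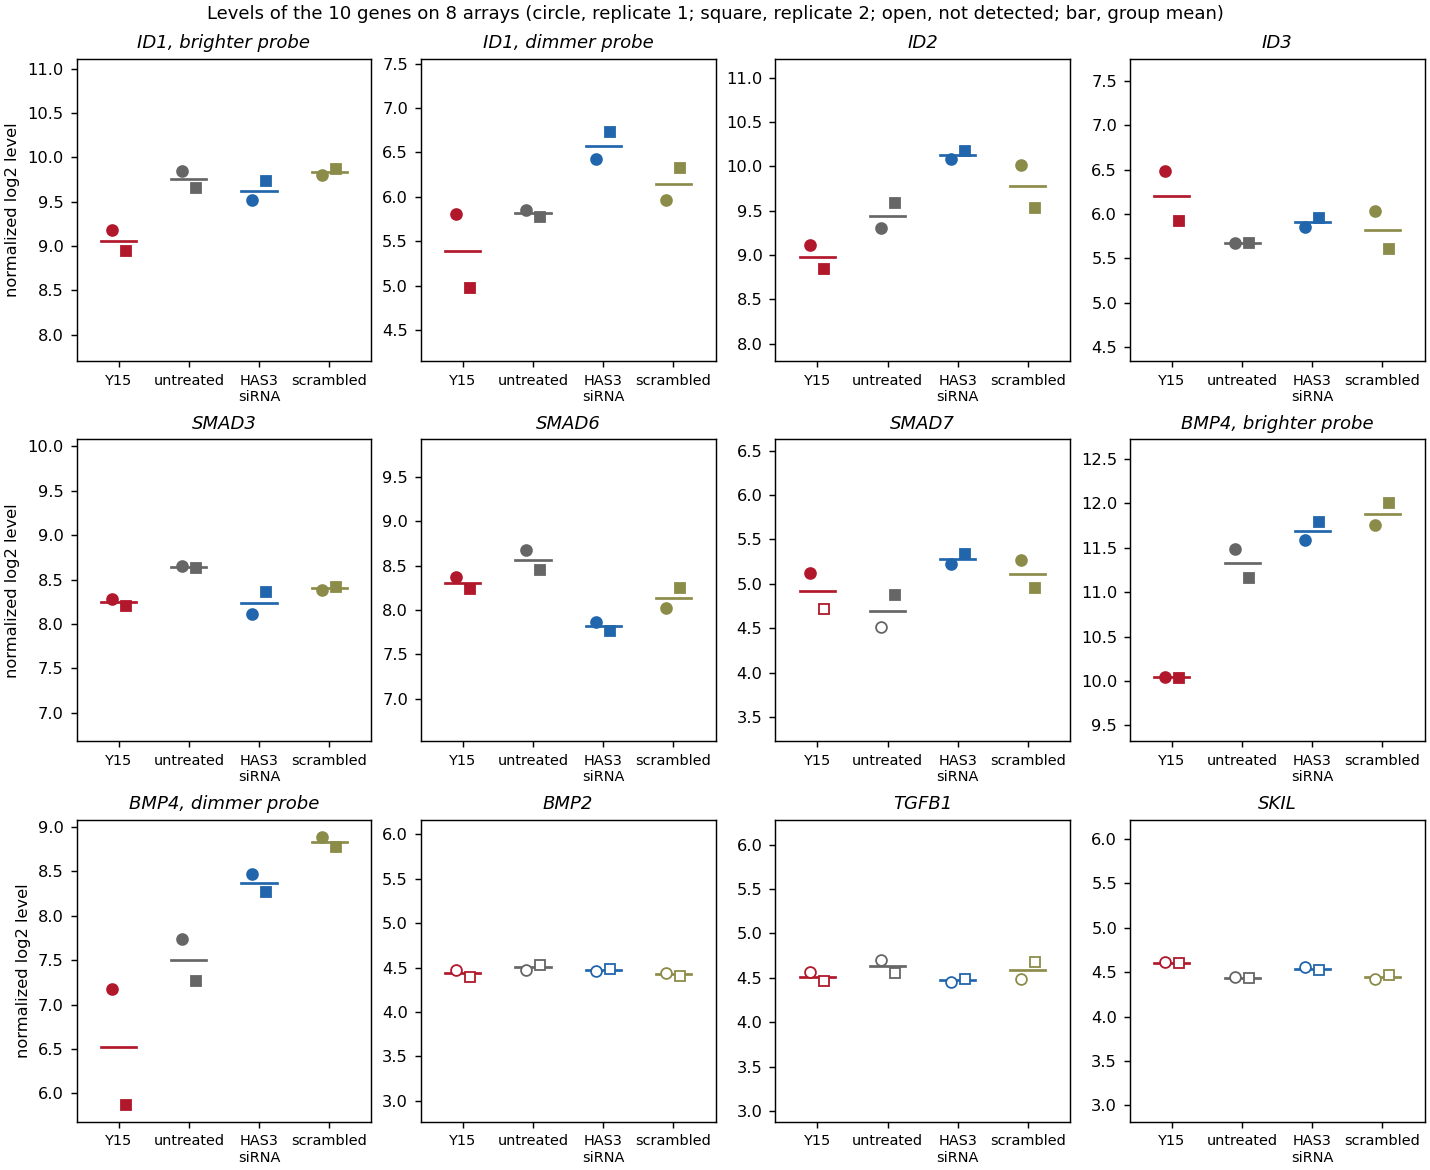
Normalized log2 level (y axis) of each of the 12 probes on the 8 arrays, by group (x axis), with circles for replicate 1, squares for replicate 2, open symbols for arrays on which the probe was not detected, and bars for group means. The panels span the same number of log2 units around different levels. Both BMP4 probes and the brighter ID1 probe are lowest in Y15 cells, and BMP2, TGFB1 and SKIL are open throughout.

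With Y15, BMP4, ID1 and SMAD3 fell, ID3 rose, and ID2, SMAD6 and SMAD7 did not pass the test. That is 4 of the 7 genes tested, while 41.8% of all 10856 genes tested passed in this comparison, so a share of this order is common among genes in general. BMP4 changed most, at 2.43-fold lower in Y15 cells. The median log2 difference over the 7 genes was -0.40, beside -0.03 over all genes. Levels of 6 of the 7 did not overlap between Y15 and untreated cells, as was so for 67.8% of all genes. In bulk RNA, less RNA per cell and fewer cells that express a gene cannot be told apart.

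BMP4, the ligand, read 10.05 and 10.04 in Y15 cells, against 11.49 and 11.16 in untreated cells. The Y15 pair lay well below the untreated pair and the 2 Y15 arrays were nearly equal. The log2 difference was -1.28 ± 0.16 (SE, n = 2 arrays per group), with a 95% interval of -1.63 to -0.94 (limma adjusted p = 6.70e-05). The dimmer probe of BMP4 read 7.18 and 5.87 in Y15 cells, against 7.74 and 7.26 in untreated cells. It too was lower on both Y15 arrays, but these stood far apart. Its difference was -0.97 ± 0.32 (adjusted p = 0.0308 over all probes). The brighter probe was called under each of the alternatives run.

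ID1, whose protein restrains differentiation-promoting helix-loop-helix factors, read 9.18 and 8.95 in Y15 cells, against 9.85 and 9.66 in untreated cells. The groups did not overlap, and the log2 difference was -0.69 ± 0.15 (95% interval -1.01 to -0.37, adjusted p = 0.00286), or 1.61-fold lower in Y15 cells. This call also held under each alternative run. The dimmer ID1 probe, annotated to the same transcript, read 5.81 and 4.98 in Y15 cells, against 5.86 and 5.77 in untreated cells. Here Y15 replicate 1 lay between the untreated arrays and only Y15 replicate 2 lay below them, with a difference of -0.42 (adjusted p = 0.180 over all probes).

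ID2, a family member with the same mode of action, read 9.11 and 8.84 in Y15 cells, against 9.30 and 9.59 in untreated cells. Both Y15 arrays were lower, but the difference of -0.47 (95% interval -0.86 to -0.07) had an adjusted p of 0.0566. It passed under several other settings, given in the closing section.

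ID3, the remaining ID gene on the list, went the other way. It was dim, at 6.49 and 5.92 in Y15 cells, against 5.67 and 5.68 in untreated cells. Both Y15 arrays were above the untreated ones, mostly through Y15 replicate 1. The difference was 0.53 ± 0.19 (95% interval 0.10 to 0.95, adjusted p = 0.0462), 1.44-fold higher, and it stood at 0.24 (adjusted p = 0.321) without Y15 replicate 1. It was also lost without untreated replicate 1 (0.138) and without untreated replicate 2 (0.129). Centring each array on its median instead gave 0.28 (0.447).

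SMAD3, a receptor SMAD of the TGF-beta branch, read 8.28 and 8.21 in Y15 cells, against 8.65 and 8.63 in untreated cells. Both pairs were tight and did not overlap. The difference was -0.40 ± 0.14 (95% interval -0.70 to -0.10, adjusted p = 0.0349), 1.32-fold lower. The call was lost when any of the 4 arrays was left out, with adjusted p-values of 0.0540 without Y15 replicate 1, 0.114 without Y15 replicate 2, 0.107 without untreated replicate 1 and 0.0926 without untreated replicate 2.

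The inhibitory SMADs did not pass with Y15. SMAD6 read 8.38 and 8.24 in Y15 cells, against 8.67 and 8.45 in untreated cells, a difference of -0.26 (95% interval -0.57 to 0.06, adjusted p = 0.177). SMAD7 was near background, at 5.12 and 4.71 in Y15 cells, against 4.51 and 4.88 in untreated cells, with 1 array of each group not detected. The groups overlapped, and the difference was 0.22 (95% interval -0.18 to 0.62, adjusted p = 0.360). The SMAD6 interval leaves room for a fall of the size seen for SMAD3. The SMAD7 interval does not hold such a fall but leaves room for a rise of that size.

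**Figure D3:**
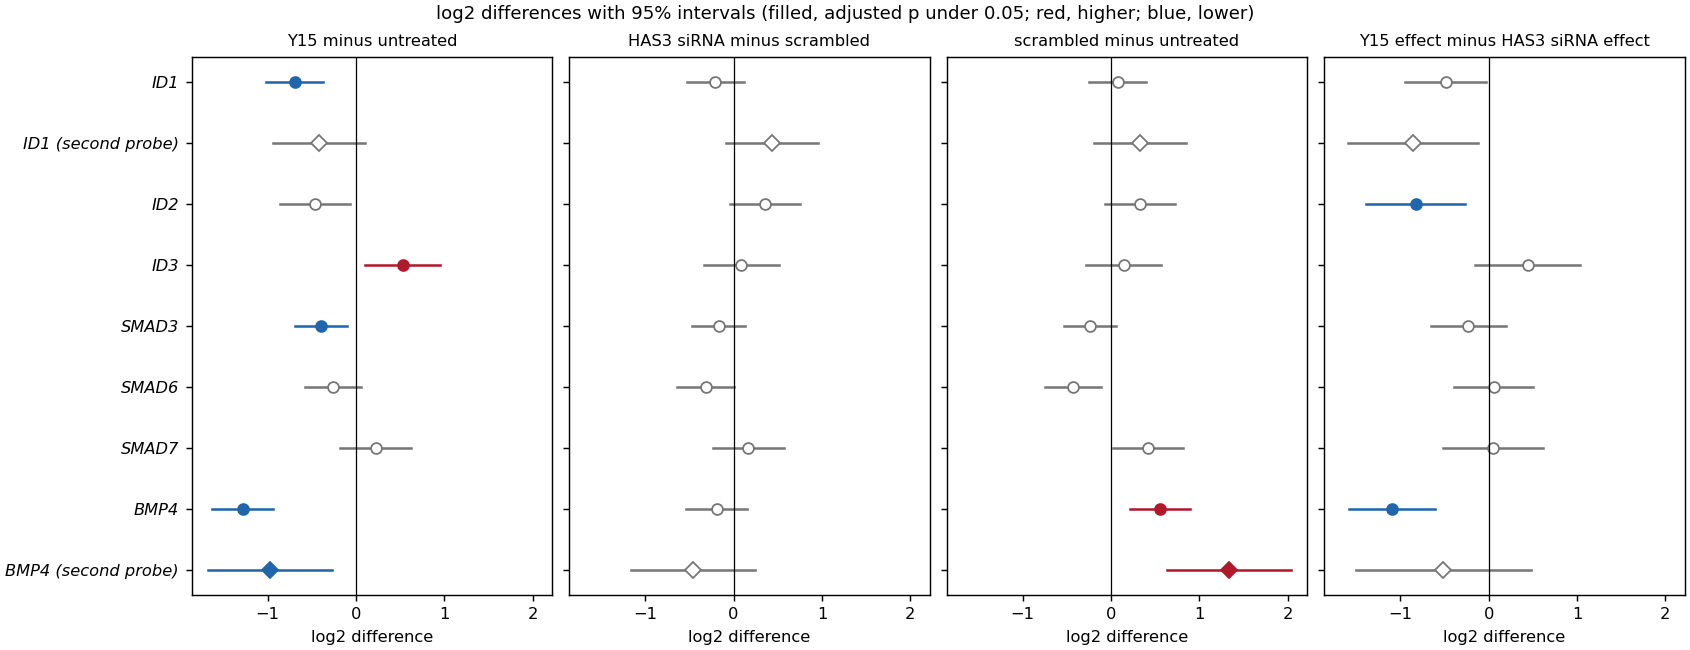
Log2 differences (x axis) with 95% intervals for the 7 genes tested and the second probes of ID1 and BMP4 (diamonds), in 4 panels: Y15 minus untreated, HAS3 siRNA minus scrambled, scrambled minus untreated, and the Y15 effect minus the HAS3 siRNA effect. Filled symbols passed at an adjusted p under 0.05, red for higher and blue for lower. BMP4 lies at -1.28 with Y15 and at -0.19 with HAS3 siRNA, where no symbol is filled.

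With HAS3 siRNA, none of the 7 genes passed, by limma (0 of 7 also at an unadjusted p under 0.05), while 8.22% of all genes passed (3.47% higher and 4.74% lower). Differences ran from -0.32 (SMAD6) to 0.35 (ID2), and levels did not overlap for 4 of the 7, beside 57.6% of all genes. SMAD6 read 7.87 and 7.77 in HAS3 siRNA cells, against 8.02 and 8.25 in scrambled cells. Both HAS3 siRNA arrays were the lower ones, with an unadjusted p of 0.0501 and an adjusted p of 0.231. ID2 read 10.08 and 10.17 in HAS3 siRNA cells, against 10.02 and 9.53 in scrambled cells. The scrambled arrays differed by more than the groups did, and the adjusted p was 0.287.

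BMP4 read 11.59 and 11.79 in HAS3 siRNA cells, against 11.76 and 12.00 in scrambled cells, so the groups overlapped. Its difference was -0.19 (95% interval -0.53 to 0.15, adjusted p = 0.535), and the dimmer probe gave -0.46 (0.467 over all probes). The 2 probes of ID1 disagreed in sign, at -0.21 for the brighter (adjusted p = 0.461) and 0.44 for the dimmer (0.335 over all probes). ID3 gave 0.09, SMAD3 -0.17 and SMAD7 0.17, with adjusted p-values of 0.850, 0.531 and 0.655 in that order. The signs of ID1, ID3, SMAD3 and SMAD7 each turned under at least 1 alternative.

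The effects of Y15 and HAS3 siRNA were then set against each other in the same fit, as the Y15 difference minus the HAS3 siRNA difference. BMP4 and ID2 passed, 2 of 7 genes, while 30.8% of all genes passed. For BMP4 the difference of effects was -1.09 ± 0.22 (95% interval -1.58 to -0.61, adjusted p = 0.00339). Averaging its probes gave -0.80 (0.0517), and the dimmer probe alone gave -0.51 (0.424 over all probes). For ID2 it was -0.82 ± 0.26 (95% interval -1.38 to -0.26, adjusted p = 0.0304), from -0.47 with Y15 and 0.35 with HAS3 siRNA, neither of which passed alone. The ID2 call was lost without Y15 replicate 2 (0.0796), untreated replicate 2 (0.102), HAS3 siRNA replicate 1 (0.0659), HAS3 siRNA replicate 2 (0.0967) or scrambled replicate 2 (0.138). ID1 gave -0.48 (adjusted p = 0.101) and ID3 0.44 (0.245), and SMAD3, SMAD6 and SMAD7 gave -0.23, 0.06 and 0.05, none of which passed. Which of the genes other than BMP4 passed depended on the scaling. ID1 (-1.15, 0.0198) and SMAD3 (-0.97, 0.0378) passed under median centring, and ID3 (0.77, 0.0464) and SMAD7 (0.94, 0.0386) under centring on the kept probes, where ID2 was lost (0.0723). ID3 also passed without Y15 replicate 2 (0.75, 0.0403).

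The control groups were also compared, and this comparison shares the untreated arrays with that of Y15 and the scrambled arrays with that of HAS3 siRNA. Scrambled cells read 11.76 and 12.00 for BMP4, against 11.49 and 11.16 in untreated cells. BMP4 was higher in scrambled cells by 0.56 ± 0.16 (1.47-fold, adjusted p = 0.0283), the only 1 of 7 genes to pass, while 19.5% of all genes passed in this comparison. Its dimmer probe read 8.89 and 8.77 in scrambled cells, against 7.74 and 7.26 in untreated cells, a difference of 1.33 (adjusted p = 0.0150 over all probes). For the brighter probe the call was lost without scrambled replicate 1 (0.0685), scrambled replicate 2 (0.199) or untreated replicate 2 (0.168). SMAD6 gave -0.43 (adjusted p = 0.0586) and SMAD7 0.42 (0.134). The remaining 4 genes ranged from -0.24 (SMAD3) to 0.33 (ID2). Levels did not overlap for 4 of the 7 genes, beside 62.9% of all genes. The scrambled and untreated cells differ in transfection as labelled, and what else differed between them cannot be told apart.

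Across the 4 groups the genes did not share an order of levels. BMP4 averaged 10.04 in Y15 cells, 11.32 in untreated cells, 11.69 in HAS3 siRNA cells and 11.88 in scrambled cells, and of neighbouring groups only the HAS3 siRNA and scrambled arrays overlapped. ID1 averaged 9.06 in Y15 cells, 9.75 in untreated cells, 9.62 in HAS3 siRNA cells and 9.83 in scrambled cells, and the upper 3 groups overlapped from neighbour to neighbour. ID2 averaged 8.98 in Y15 cells, 9.44 in untreated cells, 10.13 in HAS3 siRNA cells and 9.77 in scrambled cells, with the scrambled and untreated arrays overlapping. By the brighter probes, Y15 cells stood below every other array for these 3 genes.

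ID3 averaged 6.20 in Y15 cells, 5.67 in untreated cells, 5.91 in HAS3 siRNA cells and 5.82 in scrambled cells, and each group overlapped with its neighbour in level. SMAD3 averaged 8.24 in Y15 cells, 8.64 in untreated cells, 8.23 in HAS3 siRNA cells and 8.40 in scrambled cells, and only the Y15 and HAS3 siRNA arrays overlapped. SMAD6 averaged 8.31 in Y15 cells, 8.56 in untreated cells, 7.82 in HAS3 siRNA cells and 8.14 in scrambled cells, and only the Y15 and scrambled arrays overlapped. The inhibitory SMAD6 was thus lowest with HAS3 siRNA, and SMAD3 and SMAD6 were both highest in untreated cells. SMAD7 averaged 4.92 in Y15 cells, 4.70 in untreated cells, 5.28 in HAS3 siRNA cells and 5.11 in scrambled cells, and each group overlapped with its neighbour in level.

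Likeness of pattern was measured as the root mean square difference between log2 profiles over the 8 arrays, each centred on its own mean, among all genes tested. The genes nearest to BMP4 were ZNF703 (0.14), CENPA (0.15) and MYB (0.17), over a BMP4 range of 1.97. For ID1 they were MOSPD3 (0.06), C1orf159 and NME4, and for ID2 TSPAN6 (0.11), SLC35E3 and IGFLR1. For ID3 they were MTF2 (0.09), SLC67A1-AS and ZNF442, for SMAD3 MOK (0.04), TRIM4 and FGFRL1, for SMAD6 RMND1 (0.07), METTL25B and SEZ6L2, and for SMAD7 RBM25 (0.10), PKN2 and NDUFAF7. None of the 7 genes was among the 3 nearest to another of them. These are descriptions over 8 arrays that share groups and normalization.

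The rest of the pathway was read from 8 lists drawn up from general knowledge, with results of these data already known, some of which hold genes of the set. Over all genes tested, 18.8% were called higher and 23% lower with Y15, and 3.47% higher and 4.74% lower with HAS3 siRNA. List counts near these shares are common among genes in general. Among ligands, 12 of 26 on the array were tested, and with Y15 1 rose and 4 fell, BMP4 included, with a median of -0.16. BMP6 was detected on both Y15 arrays and on no other (at least 1.42-fold higher in Y15 cells), and BMP8B on both untreated arrays and on no other (at least 1.26-fold lower in Y15 cells). Both passed the detection filter only through the group where they are high, so their tests are not read, and without them 0 of 10 ligands rose and 3 fell. When 1 array was left out, the median of the ligands tested ran from -0.21 (without Y15 replicate 2) to -0.08 (without untreated replicate 2). BMP6 and BMP8B stayed in these medians where they still passed the filter. INHBE, the activin beta E chain, fell with Y15 by 1.81 on the log2 scale (adjusted p = 0.00470). With HAS3 siRNA 2 ligands rose and 2 fell, but TGFB3, 1 of those that rose, was detected on both HAS3 siRNA arrays and on 1 other and passed the filter only through them, so that 1 of 11 rose without it. When any 1 of the 4 arrays was left out 0 rose and 1 to 2 fell (1 without HAS3 siRNA replicate 1). GDF15, a stress-induced member of the TGF-beta family, averaged 8.90 ± 0.14 in HAS3 siRNA cells and 11.01 ± 0.80 in scrambled cells (SD, n = 2 each, difference -2.11, adjusted p = 0.00115). INHBE averaged 5.42 ± 0.31 in HAS3 siRNA cells and 7.94 ± 1.29 in scrambled cells (difference -2.53, 0.00297). The INHBE call was lost without HAS3 siRNA replicate 1 (difference -2.30). BMP5 rose by 0.63 (0.0259), a call lost without any 1 of the 4 arrays (differences of 0.55 to 0.70). The control groups differed in INHBE and BMP5 too. Scrambled minus untreated gave -2.02 for INHBE (limma adjusted p = 0.00683), 0.82 for BMP5 (0.00380) and -0.68 for GDF15 (0.136).

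Of 6 receptors tested out of 13, 1 rose and 2 fell with Y15 (median -0.13), and 2 fell with HAS3 siRNA (median -0.02). When 1 array was left out, 1 to 2 fell with Y15 (1 without untreated replicate 2) and 1 fell with HAS3 siRNA in each case. ACVR1 (ALK2), a type I BMP receptor, averaged 8.14 ± 0.05 in Y15 cells and 7.08 ± 0.05 in untreated cells (difference 1.06, adjusted p = 6.05e-05). In HAS3 siRNA cells it averaged 6.66 ± 0.04, against 7.46 ± 0.02 in scrambled cells (-0.80, 0.00242). ACVR1 was therefore higher with Y15 and lower with HAS3 siRNA, each against its own control, and both calls were lost when arrays were centred on their median (0.54 with 0.0956, and -0.62 with 0.237). TGFBR3, the co-receptor betaglycan, fell with Y15 by 0.95 (0.000437), as did BMPR2, the BMP type II receptor, by 0.54 (0.00965), which was lost without untreated replicate 2 (0.0542). TGFBR2, the TGF-beta type II receptor, fell with HAS3 siRNA by 0.58 (0.0216), a call lost without any 1 of the 4 arrays (differences of -0.68 to -0.49). The TGFBR2 call was also lost with the mean of its probes (-0.48, 0.0711), and its dimmer probe gave -0.38 (0.242 over all probes).

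Among the SMADs, 7 of 8 were tested, and 2 fell with Y15 (SMAD3 and SMAD4, list median -0.26), beside 23% of all genes. None passed with HAS3 siRNA, where 8.22% of all genes did. SMAD4, the shared partner of receptor SMADs, was detected on both untreated arrays and on neither Y15 array, at least 1.42-fold lower with Y15 (adjusted p = 0.0174), and this was lost without Y15 replicate 1 (0.0695) or untreated replicate 2 (0.172). It was also lost with offset 50 (0.0521), median centring (0.0607) and centring on the kept probes, where the difference was -0.10 (0.804). With 1 array left out, 0 to 1 SMADs fell with Y15 (0 without Y15 replicate 1 or untreated replicate 2). SMAD1 gave -0.35 with Y15 (0.0845) and SMAD5 0.06 (0.800). A dimmer SMAD5 probe, detected on neither Y15 array, gave -0.31 with Y15 (0.0794 over all probes). SMAD2, SMAD4 and SMAD5 gave 0.27, 0.31 and -0.27 with HAS3 siRNA, with adjusted p-values of 0.256, 0.361 and 0.349 in that order. SMAD9 was not detected on any array.

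Extracellular regulators had 8 of 18 genes tested, and 2 rose and 3 fell with Y15, while 1 rose and 1 to 2 fell when any 1 of the 4 arrays was left out (1 fell without untreated replicate 1). FSTL3, a follistatin-like antagonist of activins, averaged 8.44 ± 0.10 in Y15 cells and 7.08 ± 0.06 in untreated cells (1.36, adjusted p = 6.94e-05). LTBP4, which holds latent TGF-beta in the matrix, averaged 6.32 ± 0.08 in Y15 cells and 7.32 ± 0.11 in untreated cells (0.00198), and its relative LTBP3 fell by 0.90 (0.00912). The LTBP3 call was lost without Y15 replicate 2 (0.0759) or untreated replicate 1 (0.0874), and dimmer probes of LTBP4 and LTBP3 gave -0.30 and -0.08 without passing. BAMBI, a decoy receptor induced by BMP and Wnt signalling, was the 1 gene to fall with HAS3 siRNA, at 11.46 ± 0.18 in HAS3 siRNA cells and 12.53 ± 0.12 in scrambled cells (-1.07, 0.00116).

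Of 17 intracellular regulators tested out of 20, 3 rose and 4 fell with Y15 and none passed with HAS3 siRNA. The Y15 counts are near the shares over all genes (18.8% higher and 23% lower). USP9X, a deubiquitinase that acts on SMAD4, was detected on neither Y15 array and was at least 2.44-fold lower in Y15 cells (adjusted p = 9.53e-06). NEDD4L, a ubiquitin ligase for activated SMADs, fell by 1.54 (1.72e-05). TRIM33, a SMAD4-binding ubiquitin ligase, fell by 1.02 on its brightest probe (0.000101), but a dimmer probe rose by 0.56 (0.0133 over all probes) and the mean of its probes did not pass (-0.23, 0.174). FKBP1A, NEDD4L and PPM1A, the smallest p-values with HAS3 siRNA, gave 0.44, -0.37 and -0.36, with adjusted p-values of 0.118, 0.187 and 0.214. The probes of PPM1A disagreed. Its dimmer probes gave 0.48 and -0.24 with HAS3 siRNA (0.0930 and 0.380 over all probes). With Y15 they gave 1.51 and 0.37 (2.85e-05 and 0.0550 over all probes), beside 0.32 for the brightest (adjusted p = 0.124).

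Among the ID and other helix-loop-helix genes, 10 of 17 were tested, and 4 rose and 3 fell with Y15. With 1 array left out 2 to 3 rose (2 without untreated replicate 2) and 3 to 4 fell. ASCL2, a Wnt target and stem cell factor of the crypt, averaged 10.58 ± 0.04 in Y15 cells and 12.51 ± 0.17 in untreated cells (-1.93, adjusted p = 1.89e-06). BHLHE40, a transcriptional repressor, rose by 1.32 (3.09e-05), and HEY1, a Notch and BMP target, rose by 0.84 (0.00172), though not when arrays were centred on their median (0.37, 0.237). With HAS3 siRNA, HES1, the main Notch target repressor, averaged 6.98 ± 0.10 in HAS3 siRNA cells and 8.04 ± 0.03 in scrambled cells (-1.05, 0.00166), which was lost under median centring (-0.86, 0.0769). Untreated cells averaged 7.26 for HES1, and scrambled cells were above them by 0.78 (adjusted p = 0.00587). HEY1 and ASCL2 gave -0.56 and 0.36 with HAS3 siRNA (0.0598 and 0.159). The dimmer HEY1 probe passed in neither comparison, at 0.34 with Y15 and 0.08 with HAS3 siRNA (0.0615 and 0.785 over all probes).

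The last 2 lists hold target genes of the pathways, and some genes stand on both. Of 14 BMP target genes tested out of 22, 6 rose and 1 fell with Y15, with a median of 0.17, and the gene that fell was ID1. With 1 array left out 4 to 5 rose (4 without Y15 replicate 1, untreated replicate 1 or untreated replicate 2), and without Y15 replicate 1 2 fell. MSX1, a homeobox factor induced by BMPs in development, rose by 1.13 (adjusted p = 9.56e-05), and GATA2 rose by 0.82 (0.00451), though not under centring on the median (0.40, 0.288). Of 17 TGF-beta target genes tested out of 20, 9 rose and 1 fell with Y15, and the list's median was 0.52, beside -0.03 over all genes. In the comparison as a whole 18.8% of genes were called higher and 23% lower. Without Y15 replicate 2, the array of lowest intensity, 9 rose and 1 fell as well, and across the 4 arrays left out in turn 7 to 9 rose. IL11, 1 of those that rose, was detected on both Y15 arrays and on 1 other and passed the filter only through them, and without it 8 of 16 rose. IL11 was still among the genes tested in the fits with 1 array left out.

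SNAI2, a repressor of epithelial genes, averaged 10.34 ± 0.40 in Y15 cells and 7.08 ± 0.19 in untreated cells (3.26, adjusted p = 2.66e-07). CDKN1A, the cell cycle inhibitor p21, averaged 7.97 ± 0.06 in Y15 cells and 5.15 in untreated cells (2.82, 7.92e-08), and CCN2, a matrix-associated growth factor partner also induced by YAP, rose by 2.49 (6.20e-07). All 3 are induced by other pathways as well as TGF-beta. The gene of this list that fell with Y15 was TGFBI, at 10.44 ± 0.12 in Y15 cells and 11.74 ± 0.04 in untreated cells (-1.30, 2.20e-05).

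With HAS3 siRNA 1 BMP target rose and 1 fell, GATA2 (0.74, adjusted p = 0.0303) and BAMBI, and the list's median was 0.00. The GATA2 rise did not pass without any 1 of the 4 arrays (differences of 0.69 to 0.79) or under centring on the median (0.87, 0.108). It also missed with the series matrix values (0.0528), offset 50 (0.0885), cyclic loess normalization (0.0624) and no detection filter (0.0926). GATA2 averaged 6.12 in HAS3 siRNA cells, 5.38 in scrambled cells and 6.24 in untreated cells. Scrambled cells were below untreated cells by 0.85 (adjusted p = 0.00867). Among TGF-beta targets 1 rose and 3 fell with HAS3 siRNA (median -0.13), and with 1 array left out 1 rose and 1 to 3 fell (1 without scrambled replicate 2, 2 without either HAS3 siRNA array). SNAI2 rose by 1.17 (0.00240), while TGFBI, a matrix protein, averaged 10.92 ± 0.02 in HAS3 siRNA cells and 11.88 ± 0.13 in scrambled cells (-0.96, 0.00106). LMCD1 fell by 0.81 (0.00415), which was lost without scrambled replicate 2 (0.0671) and under median centring (-0.59, 0.295).

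**Figure D4:**
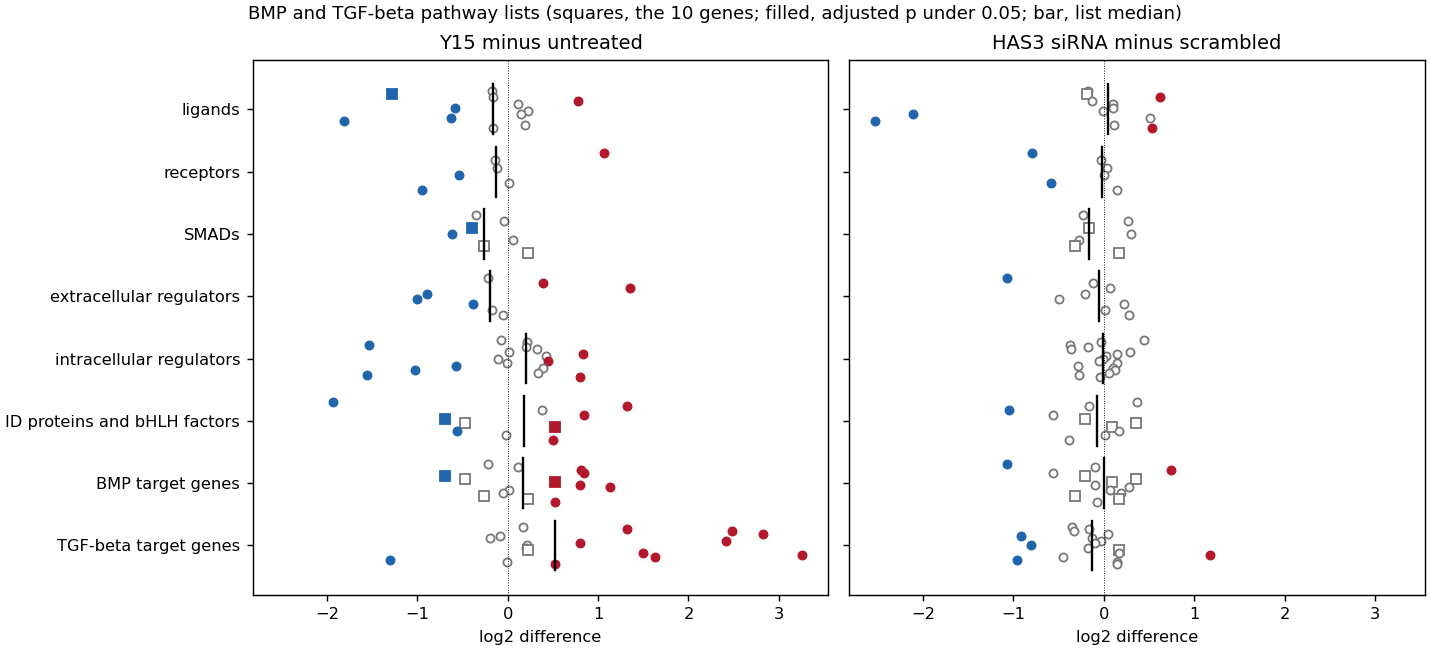
Log2 differences (x axis) of every tested gene of the 8 pathway lists (rows) for Y15 minus untreated (left) and HAS3 siRNA minus scrambled (right). Squares are genes of the set of 10, filled symbols passed at an adjusted p under 0.05 (red higher, blue lower), and bars are list medians. The TGF-beta target list has 9 red points with Y15, up to 3.26 for SNAI2, beside 1 with HAS3 siRNA.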

How the data were processed

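Total RNA was amplified to biotin-labelled cRNA from 250 to 500 ng, per the labels' protocols, and 1 array was read per sample. The deposited non-normalized table gives bead intensity on a linear scale and carries a detection p-value for each probe and array, per the file headers. GenomeStudio is named per the submitters' processing notes, with a version not given in the sources used here, and the deposited series matrix holds log2 values equal to quantile-normalized intensities (largest difference 5e-09), and served as an alternative. Background was corrected with nec of limma 3.58.1 (R 4.3.3, offset 16), followed by log2 and quantile normalization. Probes detected on at least 2 arrays at a detection p under 0.05 were kept (14631). The platform annotation, brought up to date through RefSeq gene identifiers, named 21834 probes and left 2692 unnamed. The brightest kept probe per gene (10856 genes) entered lmFit and eBayes with 4 group means (4 residual, 11.8 total degrees of freedom), two-sided, Benjamini-Hochberg over all genes, threshold 0.05. Other probes were adjusted over all kept probes. Folds against a group not detected are bounds from the lowest detected level of each array. Number of arrays limits the precision. The fit was tested on simulated data. The genes of the set and the pathway lists were chosen with earlier results of these data known. From each list the text names up to 3 genes of smallest p per main comparison and, added after their values were seen, TGFBI with Y15.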

Additional observations from a re-analysis of the deposited data

How the results depend on the processing

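The Y15 calls of BMP4 and ID1 held under every alternative run for them. Over the alternatives, the 7 genes kept direction and side of the threshold in 80 of 103 checks with Y15, 99 of 103 with HAS3 siRNA, 91 of 103 between the control groups and 103 of 124 for the difference of effects. Fitting only the 4 arrays of the comparison called 2 of the 7 genes with Y15, and the calls of ID3 (0.0747) and SMAD3 (0.0766) were lost. Calls were also lost when 1 array was left out, as given above for ID3 and SMAD3. ID3 also missed with the series matrix values (0.0514), offset 50 (0.0666), all probes (0.0512) and no detection filter (0.110), and SMAD3 missed with centring on the kept probes (0.0530). ID2 passed with the series matrix values (0.0348), offset 50 (0.0490), the strict filter of detection p under 0.01 on all 8 arrays (0.0394), median centring (-0.97, 0.00839) and without Y15 replicate 1 (0.0344). SMAD6 passed under median centring (-0.78, 0.0187) and SMAD7 under centring on the kept probes (0.93, 0.00733), an alternative chosen after seeing the data because the median of all probes lies near background. Median centring moved the median difference of all genes to -0.31 with Y15 and the share of calls that were higher to 12.7%, against 45% in the fit reported and 62.8% with centring on the kept probes (median 0.19). The same shares were 62.5%, 42.3% and 33.1% with HAS3 siRNA, 11.7%, 45.3% and 61.1% between control groups and 10%, 44.7% and 68.4% for the difference of effects. All genes called with HAS3 siRNA numbered 892 as reported, 323 under median centring, 534 under centring on the kept probes, 1409 in the 4-array fit and 313 to 442 with 1 array left out. Between the control groups all genes called were 2118, or 1057 under median centring and 667 to 1626 with 1 array left out. There, 2 of the 7 genes were called with the series matrix values, offset 50, the strict filter and centring on the kept probes, 0 under median centring (BMP4 0.280) and 0 to 1 with 1 array left out. For the difference of effects 4 were called under median centring, 3 under centring on the kept probes, 1 without a detection filter, 1 with the mean of probes and 1 to 2 with 1 array left out. Signs turned, with no test passed, for these differences. With HAS3 siRNA they were SMAD3 under median centring (0.0451), SMAD7 under centring on the kept probes (-0.0152), ID1 with the mean of probes (0.11) and ID3 without scrambled replicate 2 (-0.13 to 0.30 over the arrays left out). Between control groups they were ID1 (-0.16) and ID3 (-0.0035) under median centring, ID1 without untreated replicate 2 (-0.0196 to 0.17 over the arrays left out) and ID3 without scrambled replicate 1 (-0.0696 to 0.36). For the difference of effects they were SMAD6 under median centring (-0.66) and, with 1 array left out, SMAD6 (-0.0524 to 0.17) and SMAD7 (-0.15 to 0.27). BMP8B gave 0.0002 with Y15 under centring on the kept probes. The causes were not tested. The 32 called pathway results kept their call in 423 of 466 checks. The 32 include BMP6 and BMP8B with Y15, whose tests are not read, so the count is no check of them. Leaving BMP8B aside, calls lost under median centring, besides those in the report, were BMP5 (0.0604) and TGFBR2 (0.453) with HAS3 siRNA. Centring on the kept probes lost BMPR2 with Y15 (0.0710) and BMP5 (0.0758), GATA2 (0.0989) and TGFBR2 (0.0562) with HAS3 siRNA. Same-numbered deviations correlated above 0.1 in 3 of 6 pairs of groups (-0.07 to 0.27, highest for Y15 and untreated), so pairing by replicate number was not established for all groups, and nothing in the labels states it. With the replicate block 5 of the 7 genes were called with Y15 (ID2 added, 0.0452), 0 with HAS3 siRNA, 1 between control groups and 2 for the difference of effects. SMAD7, ID3, SMAD4 and the dimmer ID1 probe were near background, which with 2 arrays a group limits the precision of their differences.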
